A study of Homo sapiens with 24 samples.

Results

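GAPDH, ALDOC and ENO1 encode 3 enzymes of glycolysis, and 3 rows of the deposited count tables that lie opposite them were followed, of 61578 rows in all. The rows were chosen by name: ENSG00000269968, which lies opposite GAPDH, ENSG00000265168, which lies opposite ALDOC, and ENO1-AS1, which lies opposite the start of ENO1. They are annotated as antisense genes, and the reads of these stranded libraries mostly sit on the strand opposite to the gene that is named. All 3 rows passed the filter on low counts, which left 12822 rows to test. Each row is read below in 24 libraries as CPM, its count scaled to the library's total of reads on gene entries.

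The cells were HGC27, an established gastric carcinoma line grown in high-glucose DMEM. SG12 and SG21 are labelled as knockouts of TMEM97, an endoplasmic reticulum protein known as the sigma-2 receptor and as a partner of the cholesterol transporter NPC1. SGCTRL is labelled SG Control and wild type, and the fourth line is labelled parental. The labels do not say whether a knockout line is a single clone. Each of the 4 lines was kept for 3 days in medium labelled LPDS or FBS, read here as lipoprotein-deficient and fetal bovine serum, which the labels do not spell out. This gave 8 groups of 3 libraries, described by the submitters as independent biological samples.

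Glycolysis splits glucose into pyruvate in the cytosol. Aldolase, of which ALDOC is the isoform best known from brain, cleaves fructose bisphosphate into a pair of triose phosphates. GAPDH then oxidises glyceraldehyde phosphate and makes NADH, and enolase, whose widely expressed isoform is ENO1, forms phosphoenolpyruvate late in the pathway. Many cancer lines run glycolysis at a high rate, and genes of the pathway are textbook targets of the hypoxia-inducible factor HIF.

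Depth was 2399212 to 5543678 reads on genes per library, out of 44077624 to 101673235 uniquely aligned reads, and 94.3 to 94.6% of the uniquely aligned reads fell on no annotated feature. Reads that matched more than 1 gene entry were 2.10 to 2.24% of gene-assigned plus ambiguous reads in 8 libraries, namely all 6 of SGCTRL and replicates 2 and 3 of SG21 in LPDS, and 2.58 to 3.15% in the other 16. Replicate 3 of SG12 in FBS, replicate 1 of SG21 in LPDS and replicate 2 of parental cells in FBS stood apart from the other replicates of their groups. The row opposite TMEM97 (IFT20) averaged 190 ± 16.2 CPM in LPDS and 51.6 ± 4.44 CPM in FBS in SG12, 126 ± 9.45 and 75.4 ± 1.85 CPM in SG21, and 160 ± 6.13 and 129 ± 10.8 CPM in SGCTRL (SD, n = 3 each). Parental cells had 153 ± 15.7 and 106 ± 15.8 CPM. A transcript level of this kind says nothing of the protein, so the edit itself was not checked here. The cell type is labelled epithelial. Of 6 epithelial markers, 3 have a row on the opposite strand, and these averaged 1.09 CPM for CDH1, 0.233 CPM for KRT8 and 0.335 CPM for KRT18, too low to be tested. Of 6 mesenchymal markers, 5 have such a row, with means of 23667 CPM for VIM, 58.0 CPM for TWIST1, 56.5 CPM for ZEB2, 9.91 CPM for ZEB1 and 0.444 CPM for CDH2, the last not tested. Rows of unequal length do not give an order of transcript levels.

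What each row can see of its gene differs, and it sets what the values mean. ENSG00000269968 (chr12:6537794-6538370, minus strand, GRCh38, GENCODE 29) has 2 exons with 422 bases in all. All 422 lie inside exons of GAPDH (chr12:6533927-6538374, plus strand), at its 3′ end, and 10 of 11 annotated GAPDH transcripts overlap them. One exon covers bases 736 to 927 of the coding sequence of transcript GAPDH-201, at chr12:6537794-6537985 on the plus strand, shown here because this is the coding sequence through which the row samples GAPDH:
GAPDH stretch 1: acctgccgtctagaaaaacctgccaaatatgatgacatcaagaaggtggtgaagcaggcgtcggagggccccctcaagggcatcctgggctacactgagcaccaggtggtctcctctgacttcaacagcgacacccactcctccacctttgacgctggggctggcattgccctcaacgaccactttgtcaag
The other exon holds 27 more coding bases at chr12:6538141-6538167, which are bases 979 to 1005, and otherwise lies beyond the coding sequence:
GAPDH stretch 2: ctcatggcccacatggcctccaaggag
GAPDH has many processed pseudogenes in the human genome, and reads that align equally well to a copy could have been split or dropped in the counting, so its level is uncertain to that extent.

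ENSG00000265168 (chr17:28573117-28574243, plus strand) has 298 exon bases, and 296 of them lie in exons of ALDOC (chr17:28573115-28577264, minus strand), again at the 3′ end. It overlaps 3 of 9 annotated ALDOC transcripts. The 45 coding bases it covers are bases 625 to 669 of transcript ALDOC-201, at chr17:28574197-28574241 on the minus strand:
ALDOC stretch: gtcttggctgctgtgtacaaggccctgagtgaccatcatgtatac

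ENO1-AS1 (chr1:8878835-8879894, plus strand) is a different case. Of its 456 exon bases only 126 lie in exons of ENO1 (chr1:8861000-8879250, minus strand), and 330 lie beyond them. The overlap touches 3 of 17 annotated ENO1 transcripts and misses ENO1-201, which starts downstream of it at base 8878686. Its first exon reaches into the 250 bases before the RefSeq start of ENO1, covering 102 of them. The site where the row begins, at chr1:8878820-8878849 on the minus strand, is shown 5′ to 3′ along ENO1 with the bases that belong to ENO1-AS1 in capitals:
ENO1 promoter: GCTACTGCAGCCGTCgcagtcccacccctt
The body of the ENO1 transcript is therefore not read by this row, and the row is called by its own name below.

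**Figure D1:**
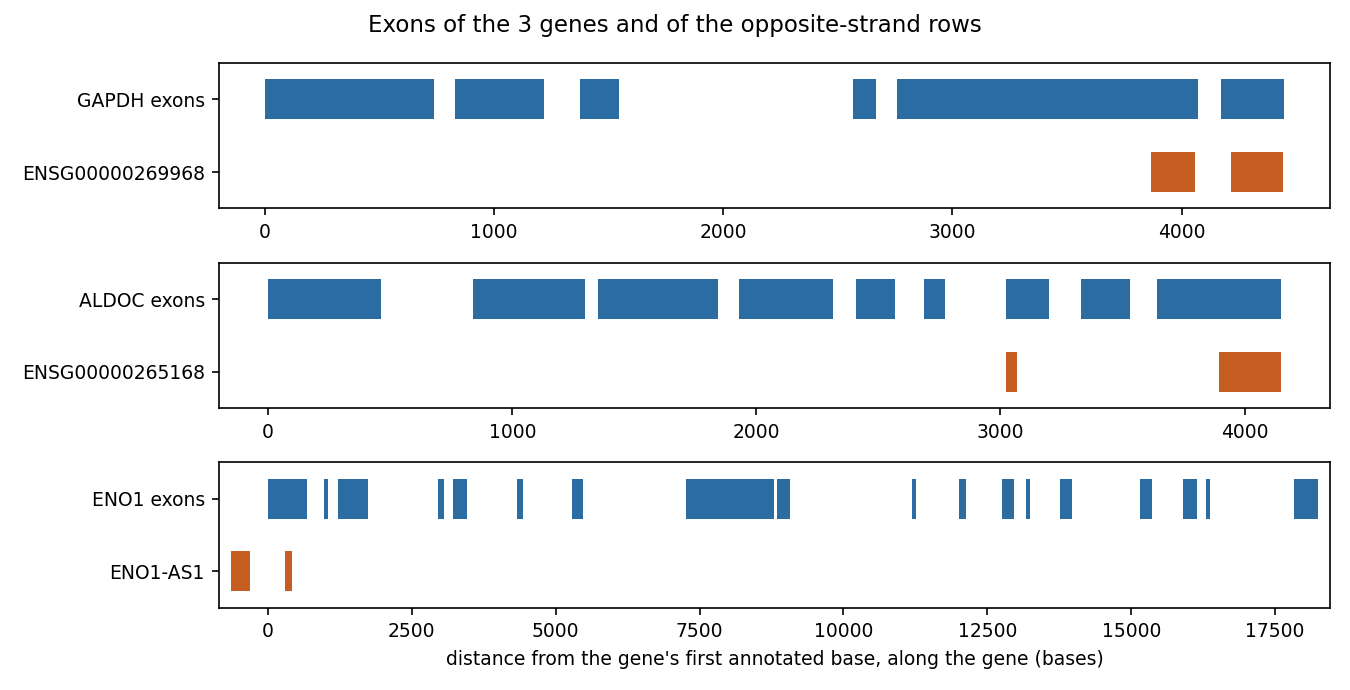
Exons of GAPDH, ALDOC and ENO1 (blue, all annotated transcripts merged) and of the row on the opposite strand (orange), by distance in bases from the first annotated base of the gene. The GAPDH and ALDOC rows lie at the 3′ end of their genes, and ENO1-AS1 lies at the start of ENO1 with its longer exon outside it.

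The GAPDH row was among the highest of the whole table. It took 3.49 to 5.58% of all reads on genes and ranked 3 of 61578 by mean CPM, with 89888 to 207099 reads per library. Reads on genes were only 5.28 to 5.54% of the uniquely aligned reads. This share and rank therefore describe the counted reads and not all RNA of the cells. The ALDOC row held 1727 to 5500 reads and the ENO1-AS1 row 68 to 297 reads, so counting error is larger for the last of these. All 3 were far from constant: the highest library exceeded the lowest 1.60-fold in the GAPDH row, 2.21-fold in the ALDOC row and 2.49-fold in the ENO1-AS1 row.

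The GAPDH row passed as lower in LPDS than in FBS in 3 of the 4 lines. In SG21 it had 39436, 37648 and 35189 CPM in LPDS (replicates 1 to 3), against 50314, 52336 and 55848 CPM in FBS. In SGCTRL it had 37692, 37899 and 35679 CPM in LPDS, against 50075, 52106 and 50778 CPM in FBS. In parental cells it had 40523, 36039 and 34902 CPM in LPDS, against 47781, 40537 and 47550 CPM in FBS. In each of these 3 lines every LPDS library was below every FBS library, though in parental cells the closest pair differed by little. SG12 had 34915, 37933 and 36376 CPM in LPDS, against 44258, 44465 and 36510 CPM in FBS, and there the groups overlapped because replicate 3 in FBS was as low as the LPDS libraries.

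The GAPDH row fell by 0.53 on the log2 scale with LPDS in SG21 (SE 0.08), which is -30.7% (adjusted p = 2.76e-05, edgeR quasi-likelihood F test, as for all adjusted p given here). It fell by 0.45 in SGCTRL (SE 0.08, adjusted p = 0.000501). It fell by 0.28 in parental cells (SE 0.08, adjusted p = 0.0332). In bulk RNA, fewer cells of a kind and less RNA per cell cannot be told apart. SG12 gave a log2 fold change of -0.20 ± 0.08, which did not pass (adjusted p = 0.0648). Without replicate 3 of SG12 in FBS that value became -0.31 and passed (adjusted p = 0.00375). Without all 3 libraries that stood apart, the changes were -0.31 in SG12, -0.58 in SG21, -0.47 in SGCTRL and -0.33 in parental cells, and all 4 passed. In the test of the difference itself, the change in SG12 exceeded that in SGCTRL by 0.25 ± 0.11, which did not pass (adjusted p = 0.143). That test gave -0.08 ± 0.11 for SG21 (adjusted p = 0.894). The GAPDH row thus gave no called difference in response between either knockout line and SGCTRL. The parental call depended on single libraries: leaving out either of 2 FBS libraries (1 or 3) or either of 2 LPDS libraries (2 or 3) ended the call, with adjusted p between 0.0886 and 0.211. With a term for the low or high side of the share of ambiguous reads, the value in SG21 was -0.42 and missed the threshold. Under that term, replicate 1 alone stood for SG21 in LPDS.

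In LPDS the 4 lines could not be told apart by the GAPDH row. The group means were 36408 ± 1509 CPM in SG12, 37424 ± 2132 CPM in SG21, 37090 ± 1226 CPM in SGCTRL and 37155 ± 2972 CPM in parental cells (SD, n = 3 each), and neighbouring groups overlapped throughout. The approximate 95% intervals of the log2 differences in LPDS were -0.17 to 0.14 for SG12 against SGCTRL, -0.18 to 0.12 for SG21 against SGCTRL and -0.13 to 0.17 for SGCTRL against parental cells.

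In FBS the lines differed. The mean was 41744 ± 4534 CPM in SG12, 52833 ± 2800 CPM in SG21, 50987 ± 1031 CPM in SGCTRL and 45289 ± 4117 CPM in parental cells. SG21 and SGCTRL overlapped at the top, SGCTRL stood clear of parental cells, and parental cells overlapped SG12. SG12 differed from SGCTRL by -0.27 ± 0.08 on the log2 scale (adjusted p = 0.0092) and from SG21 by -0.32 ± 0.08 (adjusted p = 0.00198), with the libraries apart in both comparisons. Without replicate 3 of SG12 the difference from SGCTRL was -0.15 and did not pass (adjusted p = 0.173), without all 3 libraries that stood apart it was -0.15 and passed (adjusted p = 0.0383), and against parental cells in place of SGCTRL it was -0.08 (adjusted p = 0.506). SGCTRL against parental cells gave 0.19 ± 0.08, which did not pass (adjusted p = 0.0814). SG21 against SGCTRL gave 0.05 ± 0.08 in FBS (95% interval -0.10 to 0.20).

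**Figure D2:**
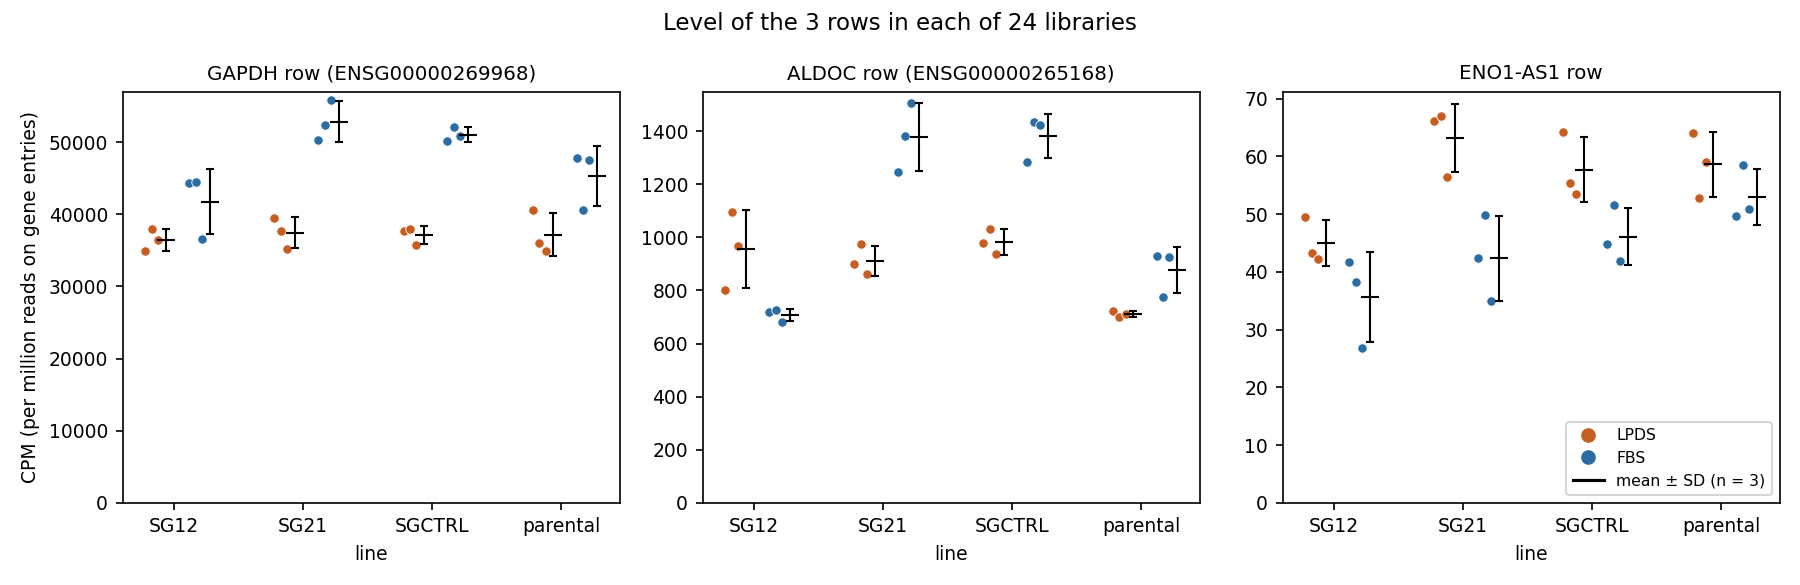
CPM of the GAPDH row, the ALDOC row and the ENO1-AS1 row (vertical axes, each from 0) in every library of the 4 lines in LPDS (orange) and FBS (blue); bars give the mean and SD of 3 libraries. The GAPDH row lies between 34902 and 40523 CPM in LPDS in all lines, and the ALDOC row is lower in LPDS than in FBS in SG21, SGCTRL and parental cells and higher in SG12.

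The ALDOC row followed the GAPDH row in SG21 and SGCTRL and went the other way in SG12. In SG21 it had 898, 974 and 860 CPM in LPDS, against 1247, 1381 and 1505 CPM in FBS. In SGCTRL it had 979, 1032 and 936 CPM in LPDS, against 1284, 1434 and 1425 CPM in FBS. In parental cells it had 724, 702 and 712 CPM in LPDS, against 929, 776 and 927 CPM in FBS. All 3 lines had every LPDS library below every FBS library. SG12 had 802, 1095 and 968 CPM in LPDS, against 718, 726 and 682 CPM in FBS, so here every LPDS library was above every FBS library.

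With LPDS the ALDOC row fell by 0.63 on the log2 scale in SG21 (SE 0.10, adjusted p = 0.000169). It fell by 0.48 in SGCTRL (SE 0.10, adjusted p = 0.00585). Parental cells gave -0.29 ± 0.10, which did not pass (adjusted p = 0.0963). In SG12 the row rose by 0.43 ± 0.10, or 34.8% (adjusted p = 0.00215). The SGCTRL call was lost without replicate 3 in LPDS (-0.42, adjusted p = 0.0667), and the SG12 call held without any 1 library, with changes between 0.32 and 0.54. The change in SG12 exceeded that in SGCTRL by 0.91 ± 0.15 on the log2 scale in the test of the difference itself (95% interval 0.63 to 1.20, adjusted p = 3.73e-05). The same test for SG21 gave -0.15 ± 0.15 (95% interval -0.43 to 0.14, adjusted p = 0.847).

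These counts stand against the share of all 12822 rows that passed in each comparison. With LPDS, 1 of the 3 rows passed in SG12, where 22.5% of all rows did, and 2 of 3 in SG21, where 3.76% did. In SGCTRL 2 of 3 passed (2.25% of all rows), and in parental cells 1 of 3 (4.67%). The difference in response from SGCTRL passed for 1 of the 3 rows in SG12 (10.4% of all rows). For SG21 it passed for none of the 3 and for none of the 12822 rows by edgeR, which found 1070 rows at an unadjusted p under 0.05, while DESeq2 called 32 rows.

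Between lines, SG12 was low in FBS. The ALDOC row averaged 708 ± 23.4 CPM in SG12 in FBS, against 1381 ± 83.9 CPM in SGCTRL, which is a difference of -47.9% (log2 difference -0.94 ± 0.10, adjusted p = 6.87e-09). It was also lower than in SG21, which averaged 1377 ± 129 CPM (-0.93 ± 0.10, adjusted p = 6.60e-09). In LPDS the same comparisons gave -0.03 ± 0.10 for SG12 against SGCTRL (95% interval -0.23 to 0.17) and 0.12 ± 0.10 for SG12 against SG21 (-0.08 to 0.33), and neither passed. SG21 and SGCTRL were not told apart in either medium, with -0.01 ± 0.10 in FBS (-0.21 to 0.19) and -0.15 ± 0.10 in LPDS (-0.36 to 0.05). In order of their means, the 8 groups ran from SGCTRL in FBS and SG21 in FBS, which overlapped each other and stood clear of the rest, through SGCTRL, SG12 and SG21 in LPDS and parental cells in FBS, to parental cells in LPDS and SG12 in FBS, which again overlapped each other and stood clear.

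The control line itself differed from parental cells in the ALDOC row. SGCTRL was higher by 0.68 ± 0.10 in FBS (adjusted p = 2.24e-05) and by 0.49 ± 0.10 in LPDS (adjusted p = 0.011), with the libraries apart in both media. The LPDS call was lost when any 1 of 5 of the 6 libraries was left out, with adjusted p up to 0.112. Set against parental cells instead of SGCTRL, SG21 was higher by 0.67 in FBS (adjusted p = 9.07e-06) and by 0.33 in LPDS (adjusted p = 0.030), and SG12 was higher by 0.46 in LPDS (adjusted p = 0.0035) and gave -0.27 in FBS (adjusted p = 0.053). The sign for SG21, and for SG12 in LPDS, turned with the control, whereas SG12 in FBS was negative against both and passed against SGCTRL. The 6 SGCTRL libraries were also among the 8 with the low ambiguous share. A term for the low or high side of that share left SG12 against SGCTRL in FBS at -0.96 (adjusted p = 0.000413). With it the call of SGCTRL against parental cells in LPDS was lost (0.51, adjusted p = 0.395). Only SG21 in LPDS has libraries on both sides, so the term cannot separate the share from the SGCTRL line.

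Between lines in FBS, 2 of the 3 rows passed for SG12 against SGCTRL, where 25.2% of all rows passed, and 2 of 3 for SG12 against SG21 (27.6%). None of the 3 passed for SG21 against SGCTRL (14.1%), and 1 of 3 for SGCTRL against parental cells (18.2%). In LPDS none passed for SG12 against SGCTRL (10.9%), SG21 against SGCTRL (10.7%) or SG12 against SG21 (18.3%), and 1 of 3 passed for SGCTRL against parental cells (0.842%).

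**Figure D3:**
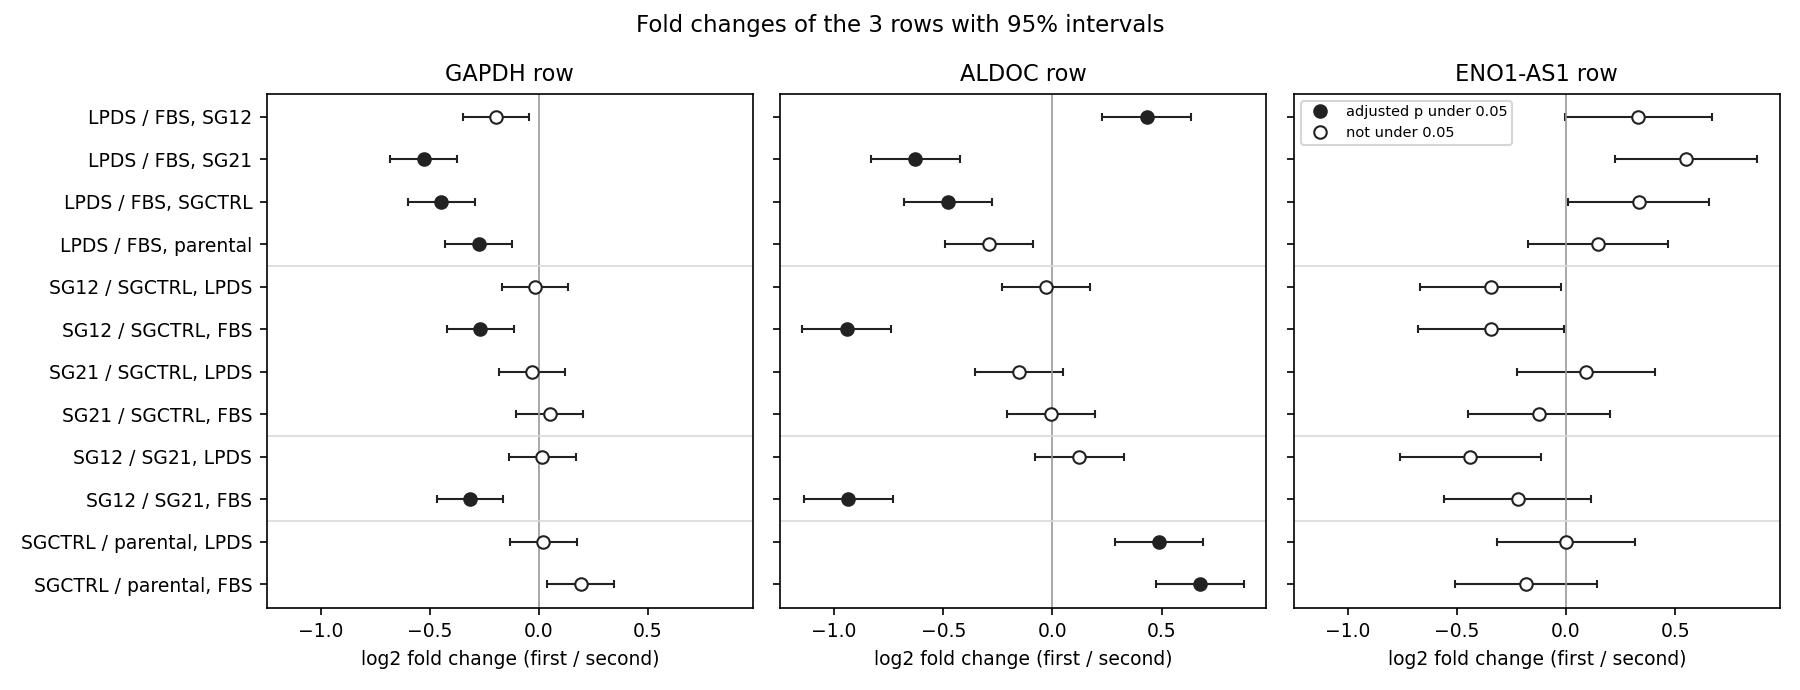
Log2 fold changes of the 3 rows (horizontal axes) with 95% intervals for each pair of groups, first over second; filled points passed at an adjusted p under 0.05 and open points did not. The ALDOC row has a rise of 0.43 with LPDS in SG12, against -0.63 in SG21 and -0.48 in SGCTRL, and lies at -0.94 for SG12 over SGCTRL in FBS.

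Read against the GAPDH row of the same library, a ratio that no scaling of libraries can change, the ALDOC row was close to constant between media in 3 lines. The ratio of reads averaged 2.44 ± 0.16% in LPDS and 2.60 ± 0.11% in FBS in SG21, 2.65 ± 0.07% and 2.71 ± 0.13% in SGCTRL, and 1.92 ± 0.13% and 1.94 ± 0.02% in parental cells (SD, n = 3 each), and the media overlapped in each line. In SG12 it averaged 2.62 ± 0.30% in LPDS and 1.71 ± 0.14% in FBS, and the lowest LPDS library (2.30%) was above the highest FBS library (1.87%). The ratio describes reads in rows of unequal length, so it is no ratio of transcript numbers. Over the 24 libraries the log2 CPM of both rows correlated with a Pearson r of 0.71, a description of libraries that share groups and depth.

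**Figure D4:**
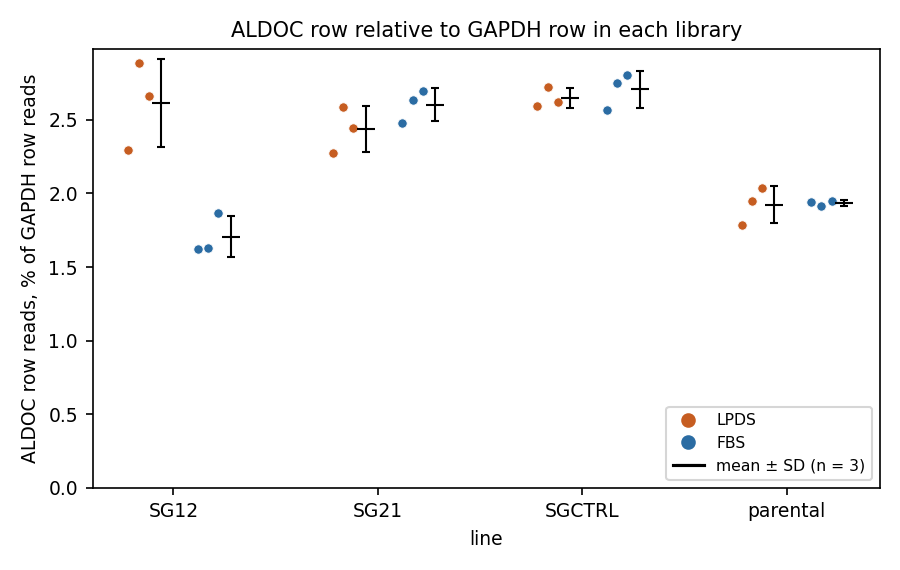
Reads in the ALDOC row as a percentage of reads in the GAPDH row (vertical axis, from 0) in each library of the 4 lines in LPDS (orange) and FBS (blue); bars give the mean and SD of 3 libraries. SG12 in LPDS lies at 2.62%, near SG21 and SGCTRL, and SG12 in FBS at 1.71%, near parental cells.

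The ENO1-AS1 row had positive values for LPDS against FBS in all 4 lines, where the GAPDH row had negative ones, and it passed none of the 14 tests. SG21 had 66.1, 67.0 and 56.4 CPM in LPDS, against 42.3, 49.8 and 35.0 CPM in FBS, and the groups did not overlap. The log2 fold change of 0.55 ± 0.17 missed the threshold (adjusted p = 0.0522), and DESeq2 placed the same value past it (0.55, adjusted p = 0.0214). SG12 had 49.5, 43.3 and 42.2 CPM in LPDS, against 41.7, 38.2 and 26.8 CPM in FBS (0.33 ± 0.17). SGCTRL had 64.2, 55.4 and 53.6 CPM in LPDS, against 44.8, 51.6 and 41.9 CPM in FBS (0.33 ± 0.16). Parental cells had 64.1, 52.7 and 59.1 CPM in LPDS, against 49.6, 58.5 and 50.9 CPM in FBS, and these overlapped (0.15 ± 0.16).

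The intervals of these 4 values reach from -0.17 in parental cells to 0.87 in SG21. Between lines, SG12 had the lowest mean of each medium, with a log2 difference from SGCTRL of -0.34 in both LPDS and FBS (SE 0.16 and 0.17), and neither passed. The row correlated with the GAPDH row at r = -0.36 and with the ALDOC row at r = -0.15 over the 24 libraries. In the order of the 8 group means every neighbouring pair overlapped, from 63.2 ± 5.89 CPM in SG21 in LPDS to 35.6 ± 7.79 CPM in SG12 in FBS.

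The rows under the genes' own names held few reads. GAPDH itself had 72 to 1645 reads per library (26.4 to 484 CPM), and the opposite row exceeded it by 83.8-fold to 1696-fold. ALDOC had 1 to 54 reads (0.272 to 15.9 CPM), and the opposite row exceeded it by 48.9-fold to 5231-fold. ENO1 had 95 to 1148 reads (29.2 to 338 CPM), and ENO1-AS1 was 0.173 to 1.90 times as high, a ratio that says nothing of the strand of ENO1 reads, since the row misses the body of the transcript.

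The own-name rows moved with medium and line in a pattern unlike that of the opposite rows. GAPDH under its own name was lower with LPDS in parental cells (log2 fold change -1.96 ± 0.32, adjusted p = 0.000143) and in SG12 (-1.59 ± 0.35, adjusted p = 0.0008). ENO1 under its own name was lower in the same lines (-1.66 ± 0.25, adjusted p = 4.95e-05, in parental cells and -1.36 ± 0.27, adjusted p = 0.000234, in SG12). Neither passed in SG21 or SGCTRL. The mean of the GAPDH own-name row in FBS was 97.5 ± 46.9 CPM in SG12, 50.1 ± 18.5 CPM in SG21, 66.4 ± 26.1 CPM in SGCTRL and 321 ± 153 CPM in parental cells. ENO1 and GAPDH under their own names stayed within a ratio of 0.693 to 1.56 in every library, so they rose and fell together across libraries. The share of such reads differed between the groups compared, and its part in the results above was not tested. At most 1.19% of the level of the GAPDH row was concerned.

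Few other genes of the pathway can be read in these tables. Of 28 genes listed for glycolysis, 8 have a tested row on the opposite strand. The 3 described here are included, though ENO1-AS1 misses the body of the ENO1 transcript. The other 5 are ALDOA, the main aldolase of most tissues, PFKM, GAPDHS, PGAM2 and ENO3, whose products are best known from muscle or, for GAPDHS, from sperm. For PFKM, PGAM2 and ENO3 the row is that of another protein-coding gene, so it can also hold that gene's own reads. GAPDHS and ALDOA hold 90.9% and 86.4% of the overlap of their rows with exons on the other strand. These 2 rows can therefore also hold reads of another gene. With LPDS the number of the 8 that passed was 1 in SG12 (higher, ALDOC), where 22.5% of all rows passed in either direction. It was 3 in SG21, all lower, where 1.95% of all rows passed lower. It was 2 in SGCTRL (lower, against 0.967% of all rows) and 2 in parental cells (lower, against 2.49%). Without the 3 libraries that stood apart, 1 passed higher (ALDOC) and 3 lower in SG12, where 27.7% of all rows passed in either direction. SG21 had 1 higher (ENO1-AS1) and 3 lower (9.66% in either direction). SGCTRL had 3 lower, where 2.57% of all rows passed lower, and parental cells had 3 lower (0.796%). The median log2 fold change of the 8 was 0.11, -0.30, -0.15 and -0.18 in that order of lines, against 0.02, 0.01, 0.0013 and -0.01 over all rows. Without the 3 rows described here, the medians of the other 5 were -0.11, -0.28, -0.11 and -0.16. Of these 5, 1 passed in SG21 and 1 in parental cells, both lower, and 0 in SG12 and SGCTRL.

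ALDOA (ENSG00000274904) was the best read of these, with a mean of 1439 CPM. It averaged 1680.0 CPM in LPDS and 2044 CPM in FBS in SG21, a log2 fold change of -0.31 ± 0.09 (adjusted p = 0.0429). The fold change was -0.11 in SG12, -0.25 in SGCTRL and -0.15 in parental cells, none of which passed. SG21 was higher than SGCTRL in ALDOA by 0.48 ± 0.09 in FBS (adjusted p = 0.000238) and by 0.42 ± 0.09 in LPDS (adjusted p = 0.00149), where ALDOC gave -0.01 and -0.15 and did not pass. SG12 against SGCTRL gave -0.14 in FBS (adjusted p = 0.284) and 0.00028 in LPDS (adjusted p = 0.999) in ALDOA. All SGCTRL libraries have the low ambiguous share, and values against parental cells in place of SGCTRL are not given for ALDOA. ENO3 (row PFN1), a muscle enolase at a mean of 24.1 CPM, passed as lower with LPDS in parental cells (-1.07 ± 0.30, adjusted p = 0.0333), though the libraries overlapped and the call was lost without the 3 libraries that stood apart (-0.58, adjusted p = 0.345). That row is the entry of profilin, and it was highest in parental cells in FBS (59.6 CPM), as the own-name GAPDH row was. The part of profilin's own reads in the change was not tested.

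Around glycolysis, 6 of 15 genes for the fate of pyruvate and gluconeogenesis and 2 of 16 genes of side branches could be read. With LPDS 1 of these 8 passed in any line, against the 2.25 to 22.5% of all rows given above. It was MPC2, a subunit of the mitochondrial pyruvate carrier, which fell by 0.45 in SG21 (SE 0.13, adjusted p = 0.0382) with overlapping libraries. Its row is DCAF6, itself a protein-coding gene, so it can also hold that gene's own reads. PDK1, a kinase that holds pyruvate dehydrogenase inactive and a known HIF target, had negative values in all 4 lines (-0.47 in SG12, -0.63 in SG21, -0.31 in SGCTRL and -0.58 in parental cells), none past the threshold. In each line this was the lowest value of the 6 genes. The median of the 6 pyruvate and gluconeogenesis genes was -0.11 in SG12, 0.12 in SG21, 0.06 in SGCTRL and -0.13 in parental cells. PDK1 holds 89.5% of the overlap of its row with exons on the other strand, so the row can also hold reads of another gene. Between lines, MPC2 was higher than SGCTRL in both knockouts, by 0.86 in SG12 and 1.14 in SG21 in FBS (adjusted p = 3.99e-06 and 6.31e-08). Of the 6 genes for the fate of pyruvate and gluconeogenesis, 1 passed higher and 1 lower for SG12 there, where 25.2% of all rows passed. For SG21, 2 passed higher and 0 lower (14.1%). In LPDS the highest log2 difference from SGCTRL among the 6 genes was 0.46 in SG12 and 0.64 in SG21. These values rest on SGCTRL as the only control, and all of its libraries have the low ambiguous share. Values against parental cells in place of SGCTRL are not given for MPC2.

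Genes known to respond to hypoxia that passed with LPDS were lower, as the GAPDH row was, except VEGFA in parental cells. Of 18 listed, 7 could be read, and lower values passed for 6 of 7 in SG12, where 10.9% of all rows passed lower, 6 of 7 in SG21 (1.95%), 3 of 7 in SGCTRL (0.967%) and 3 of 7 in parental cells (2.49%). Without the 3 libraries that stood apart, lower values passed for 6 in SG12 (14.4% of all rows), 6 in SG21 (5.05%), 6 in SGCTRL (2.57%) and 3 in parental cells (0.796%). With a term for the ambiguous share, 3 of the 7 passed lower in SG21, where 0.265% of all rows did. The median log2 fold change of the 7 was -0.62 in SG12, -0.65 in SG21, -0.56 in SGCTRL and -0.35 in parental cells. ANKRD37 (row UFSP2, itself a protein-coding gene), an ankyrin repeat protein, was lower in all 4 lines, with a mean of 51.6 CPM in LPDS and 79.4 CPM in FBS in SG12, 51.1 and 137 CPM in SG21, 40.5 and 82.4 CPM in SGCTRL, and 37.1 and 71.1 CPM in parental cells (log2 fold changes -0.62, -1.44, -1.01 and -0.94). LOXL2, a collagen crosslinking oxidase, also passed as lower in all 4 lines (-0.31, -0.61, -0.68 and -0.50 in the same order of lines).

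VEGFA, the angiogenic growth factor, differed in sign between lines. It fell in SG12 (574 CPM in LPDS and 880 CPM in FBS, -0.62 ± 0.10, adjusted p = 1.17e-05) and rose in parental cells (572 and 417 CPM, 0.47 ± 0.10, adjusted p = 0.0034). SG21 and SGCTRL gave 0.01 and 0.27, and neither passed. In SG12, where the ALDOC row rose, P4HA2, a subunit of collagen prolyl hydroxylase, fell by 1.55 (SE 0.13, adjusted p = 6.64e-12). LOX (row SRFBP1, also protein-coding), an oxidase that crosslinks collagen, had -1.07 ± 0.10 there (adjusted p = 4.56e-10). All these comparisons share the libraries of the GAPDH and ALDOC results, and no test of the groups of genes was made.

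**Figure D5:**
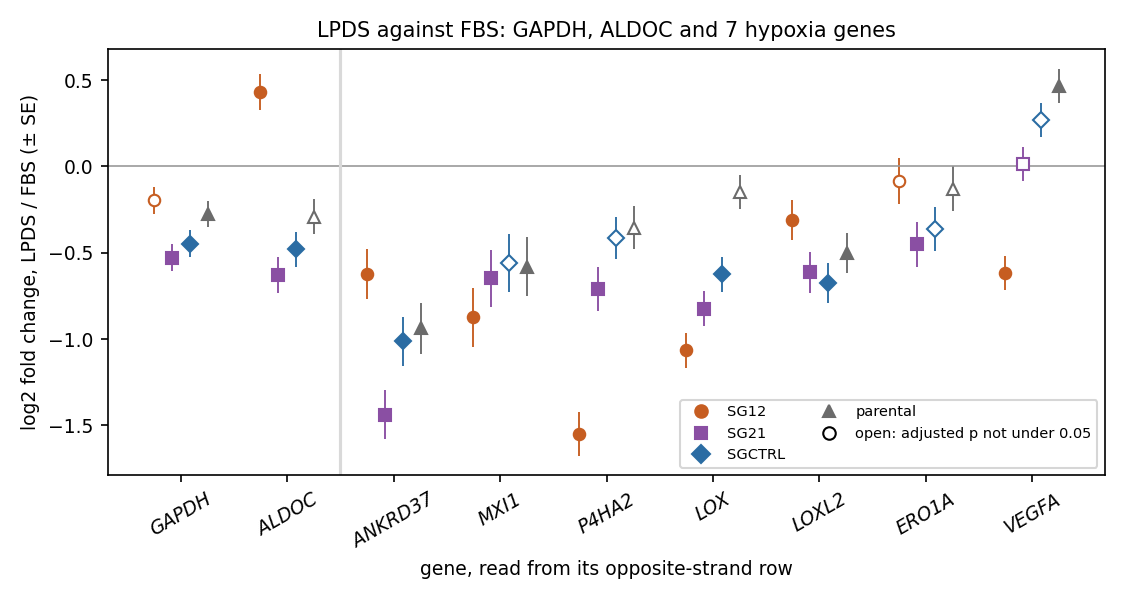
Log2 fold change of LPDS over FBS with its SE (vertical axis) for GAPDH, ALDOC and the 7 readable hypoxia genes in SG12, SG21, SGCTRL and parental cells; open symbols did not pass at an adjusted p under 0.05. ALDOC in SG12 is at 0.43, while 6 of the 7 hypoxia genes in SG12 passed below 0.

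The promoter windows of GAPDH and ALDOC, the 250 bases before the RefSeq start, both hold ACGTG, the core of a hypoxia response element. They are shown for that reason. In the annotation used for the rows, such windows are not wholly upstream of the genes. Exons of the gene itself cover 128 of the 250 bases for GAPDH and all 250 for ALDOC and for ENO1. The GAPDH site lies downstream of the annotated start of GAPDH-201 (base 6533927). Both ALDOC sites lie downstream of the annotated start of ALDOC-201 (base 28577264, minus strand), within exons of ALDOC. In the 250 bases before the RefSeq start (GRCh38.p14), searched on both strands, ACGTG was found in 18.5% of 35116 promoters. In GAPDH it forms a CACGTG palindrome that starts at base -81, in ALDOC a second such palindrome starts at base -240 and a single match at base -28, and in ENO1 it was not found. CACGTG, which contains ACGTG, was found in 6.34% of promoters, and GCGTG, the other spelling of the core, in 32.2%, with 0 places in GAPDH, 2 in ALDOC and 2 in ENO1. The sites, with matches on either strand in capitals and 5′ to 3′ along each gene, are at chr12:6535171-6535200, chr17:28577116-28577145 and chr17:28576906-28576935:
GAPDH site: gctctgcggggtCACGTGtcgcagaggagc
ALDOC distal site: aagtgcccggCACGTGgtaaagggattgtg
ALDOC proximal site: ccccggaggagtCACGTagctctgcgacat

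Rows whose log2 CPM ran most alike over the 24 libraries were taken from 3486 rows above an average of 5 on the log2 CPM scale, and the gene on the opposite strand is given where one could be assigned. For the GAPDH row they were UFSP2, which lies opposite ANKRD37 (r = 0.84), ARHGEF39 (0.82), FOXK2, opposite ENSG00000261845 (0.80), ENSG00000283973, opposite SLC2A1-DT (0.80), and HIF1A, which lies opposite HIF1A-AS1 (0.78). For the ALDOC row they were PUS10, opposite PEX13 (0.85), PSIP1, opposite SNAPC3 (0.84), TAF9B (0.84), FANCI, opposite POLG (0.83), and CLCC1, opposite GPSM2 (0.81). For the ENO1-AS1 row they were NQO1-DT, opposite NOB1 (0.81), TMEM138, opposite CYB561A3 (0.80), FASN (0.79), CALHM2, opposite ENSG00000273485 (0.78), and AGAP2, opposite AGAP2-AS1 (0.77). No row appears in more than 1 of these lists. The libraries share groups and depth, so the correlations describe these 24 libraries.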

How the data were processed

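Libraries were prepared from 100 ng of total RNA with a stranded, ribosomal RNA depleting Illumina kit, per the labels' protocols. Base calls were converted with bcl2fastq, and STAR aligned the reads to hg38, per the submitters' processing notes. How reads were counted, on which strand and against which annotation is not given in the sources used here. The deposited files hold whole-number read counts for each gene entry, 1 file per library, and end in 5 entries for reads assigned to no gene, which were left out except where all uniquely aligned reads served as library size.

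Gene entries were matched by name to GENCODE 29. A row stands for the gene on the other strand where exons of both share 50 or more bases and that gene holds 80% or more of such overlap. A row samples part of its gene, so levels of different genes are not compared.

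The quasi-likelihood F test of edgeR 4.0.16 (R 4.3.3) used all 24 libraries in 1 model of group means after filterByExpr and TMM scaling, and p-values were adjusted by Benjamini-Hochberg over the 12822 rows of each comparison (pass: adjusted p under 0.05). Standard errors were derived from the F statistic and are approximate. The fit was tested on simulated data. Alternatives were DESeq2 1.42.0, its size factors in edgeR, uniquely aligned reads as library size, no filter, a filter of 1 CPM in 3 libraries (planned as the stricter one, though it kept 20228 rows), the spread of the compared groups only, a replicate block, a term for the ambiguous share, parental cells in place of SGCTRL, and the omission of single libraries. Omitting the 3 libraries that stand apart was added after seeing the data. The term for the ambiguous share marks only the low or high side of the gap between libraries. Only SG21 in LPDS has libraries on both sides, replicate 1 against replicates 2 and 3. The term therefore rests on that group and cannot separate the share from the SGCTRL line.

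The members, lists and tests were chosen with earlier results of these data known. Named genes are the 3 rows, their own-name rows, TMEM97, listed genes with a tested row, and the 5 most alike rows. Libraries with the same replicate number did not deviate together in all pairs of any comparison, so numbers were not taken to pair libraries. No libraries of a group agreed within sampling noise. The result for 1 listed gene is not reported here.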

Additional observations from a re-analysis of the deposited data

Results flagged for a closer look

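The response of the ALDOC row to LPDS differed between SG12 and SGCTRL by 0.91 on the log2 scale, by the test of that difference (SE 0.15, adjusted p = 3.73e-05). In this row every LPDS library was above every FBS library in SG12 and below every FBS library in SGCTRL.

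The same test of the difference passed for 4 other readable genes of the lists, each with a lower value in SG12: GAPDHS (row TMEM147-AS1, -0.47, adjusted p = 0.0405), VEGFA (-0.89, adjusted p = 2.46e-05), P4HA2 (-1.14, adjusted p = 1.97e-05) and LOX (-0.44, adjusted p = 0.0414). In this comparison 10.4% of all rows passed. The GAPDHS row can also hold reads of another gene, since GAPDHS holds 90.9% of its overlap with exons on the other strand.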

How the results depend on the processing

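Values are log2 fold changes, and the cause of each change was not tested. For the GAPDH row, LPDS against FBS gave -0.26 in parental cells with the spread of the compared groups alone and lost its call. In SG12 it gained one with DESeq2 size factors in edgeR (-0.23), the ambiguous-share term (-0.20) and the 3 libraries left out (-0.31), and SG21 lost it with that term (-0.42). SG12 against SGCTRL in FBS lost its call with DESeq2 (-0.23) and against parental cells (-0.076). SG21 in FBS was -0.12 with the term and 0.24, a call, against parental cells. SGCTRL against parental cells in FBS passed without a filter (0.22). Uncalled values near 0 changed sign in LPDS: SG12 against SGCTRL (0.0033 against parental cells, 0.0075 with the 3 left out), SGCTRL against parental cells (-0.015 with all unique reads, -0.0069 with own spread, -0.0050 with the 3 left out), SG12 against SG21 (-0.013 with all unique reads, -0.093 with the term), and the response of SG21 against SGCTRL (0.027 with the term).

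For the ALDOC row, parental cells passed for LPDS with DESeq2, with its size factors (-0.33 each) and with the 3 left out (-0.36). Against parental cells SG12 in FBS lost its call (-0.27), and SG21 in FBS (0.67) and both knockouts in LPDS (0.46 in SG12, 0.33 in SG21) turned to passing higher values. SG21 against SGCTRL in FBS was 0.00053 with the filter of 1 CPM in 3 libraries, and SGCTRL against parental cells in LPDS lost its call with the term (0.51).

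For ENO1-AS1, LPDS against FBS in SG21 passed with DESeq2 (0.55), all unique reads (0.59) and the 3 left out (0.50). SG12 passed lower against parental cells in FBS (-0.53) and against SG21 in LPDS with all unique reads (-0.47). SGCTRL against parental cells in LPDS, at 0.00050, turned negative with DESeq2 (-0.0082), its size factors (-0.0079), all unique reads (-0.034), the 1 CPM filter (-0.0092), own spread (-0.026) and the 3 left out (-0.024). The response of SG12 against SGCTRL, at -0.00080, turned positive with all unique reads (0.014) and parental cells (0.18).

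With the replicate number as a block, which the check of pairing did not call for, ENO1-AS1 passed for LPDS in SG21 (0.55) and for SG12 against SG21 in LPDS (-0.43), and turned sign for SGCTRL against parental cells in LPDS (-0.0032) and the SG12 response (0.011). The other 38 of 42 member results kept their sign and side of the threshold under the block.

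With single libraries left out, these results changed sign or call over the ranges given. GAPDH row, LPDS against FBS: -0.35 to -0.22 in parental cells and -0.31 to -0.15 in SG12. GAPDH row in FBS: -0.31 to -0.15 for SG12 and -0.0012 to 0.077 for SG21 against SGCTRL, and 0.12 to 0.25 for SGCTRL against parental cells. GAPDH row in LPDS: -0.071 to 0.018 for SG12 and -0.091 to 0.042 for SG21 against SGCTRL, -0.029 to 0.097 for SGCTRL against parental cells, and -0.034 to 0.073 for SG12 against SG21. The SG21 response ranged over -0.14 to 0.0076. ALDOC row: -0.54 to -0.42 for LPDS in SGCTRL, -0.084 to 0.054 for SG21 against SGCTRL in FBS, -0.15 to 0.081 for SG12 against SGCTRL in LPDS, and 0.43 to 0.55 for SGCTRL against parental cells in LPDS. ENO1-AS1: 0.43 to 0.67 for LPDS in SG21, -0.090 to 0.082 for SGCTRL against parental cells and -0.52 to -0.37 for SG12 against SG21 in LPDS, and -0.18 to 0.12 for the SG12 response.

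Glycolysis genes passing for LPDS were 2 in SG12 without a filter, 2 there with the term, 1 in SG21 with the term, and 4 in SG12 with the 3 left out. Hypoxia genes passing were 5 in SGCTRL with DESeq2, 6 there with the 3 left out and 3 in SG21 with the term. Calls over all rows with the term were 71 against 482 for LPDS in SG21, 784 against 3234 for SG12 and 150 against 1810 for SG21 over SGCTRL in FBS, 181 against 1402 for SG12 over SGCTRL in LPDS, 1101 against 2343 for SG12 over SG21 in LPDS, and 153 against 2338 in FBS and 0 against 108 in LPDS for SGCTRL over parental cells. With the compared groups' spread they were 223 against 599 in parental cells and 654 against 289 in SGCTRL for LPDS. With the 3 libraries left out they were 306 in parental cells, 614 in SGCTRL and 1238 against 482 in SG21, and 2256 against 1331 for the SG12 response. For SGCTRL over parental cells in LPDS, DESeq2 called 218, no filter 190, own spread 314 and the 3 left out 448, against 108. For the SG21 response, DESeq2 called 32, no filter 46, the 3 left out 487 and parental cells as control 107, against 0. Against parental cells SG21 in FBS had 3088 calls, against 1810.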
